A study of Mus musculus with 9 samples.

Results

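FK866 added to interferon gamma (IFNγ) was compared with IFNγ alone in B16F10 cells, a mouse melanoma line. The comparison rests on 6 of the 9 libraries of the series, chosen by their labels. In 3 of them the cells had received 50 ng/mL IFNγ together with 50 nM FK866 for 6 h, and in 3 they had received 50 ng/mL IFNγ alone for the same 6 h. The other 3 libraries, from cells kept in medium, stayed in the fit and served to find the genes that respond to IFNγ. The labels name no genetic change in any group, and no group received FK866 without IFNγ. The treatment text allows mouse or human IFNγ and gives the product of the mouse protein. Every title carries the word Control with the number 3, 4 or 5, in all 3 groups, and their meaning is left unexplained. Separate cultures are not named for the libraries of a group either. The p-values therefore speak of the spread among these libraries, and that spread may be technical. The RNA is labelled polyA. The series text names a droplet platform, but the table holds 1 value per gene and library and was treated as bulk RNA, so fewer cells of a kind and less RNA per cell cannot be told apart.

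FK866 is a small molecule that binds and blocks NAMPT, the rate-limiting enzyme of the salvage route that rebuilds NAD from nicotinamide. NAD carries electrons in glycolysis and respiration and is consumed by PARPs, sirtuins and the ectoenzyme CD38, which release nicotinamide again. IFNγ signals through its receptor and the kinases JAK1 and JAK2, which leads to a rise of Irf1 and, with it, of genes of antigen presentation, chemokines, the checkpoint ligand PD-L1 and large families of GTPases. Whether blocking NAMPT changes that response in transcripts is the question the comparison addresses.

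Library totals ran from 15317000 to 18467000 counts. Of the 55487 genes in the table, 15237 were tested, and they held 99.9% of the counts. Melanocyte markers were abundant, with a summed level of 27995 to 30719 CPM, the depth-scaled count, over 23 genes with IFNγ and 26734 to 30651 CPM with FK866 added. The 16 leukocyte markers summed to 3.38 to 11.3 CPM with IFNγ and 4.78 to 9.88 CPM with FK866 added, and 11 of them, among them Ptprc, Cd4, Cd8a and Itgam, had 0 counts in every library. The 16 markers of fibroblasts, endothelium and keratinocytes summed to 10.7 to 14.3 CPM and 11.1 to 15.5 CPM, with 7 at 0 counts in every library. The Control number was used as a pairing block. Over the well measured genes, defined here as those with a mean of at least 10 CPM over the 6 libraries, the log2 difference of FK866 minus IFNγ had an SD of 0.147, 0.150 and 0.157 within Control 3, 4 and 5. Between numbers of the same group that SD was 0.376 to 0.495.

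Adding FK866 to IFNγ left nearly all well measured genes within a narrow range of their level with IFNγ alone. Over 9087 well measured genes the median absolute log2 fold change was 0.054, a 1.04-fold difference, and 98% of the genes lay between -0.23 and 0.23 on the log2 scale. In the fitted estimate 44 of them differed by more than 25% and 5 by more than 1.5-fold. The standard error was 0.075 in the median, so that the typical 95% interval reached 1.11-fold to either side of its estimate. The median log2 fold change of the well measured genes was -0.025, and the medians within Control 3, 4 and 5 were 0.0053, -0.020 and -0.058.

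A pair of one-sided tests per gene asked whether a difference of 1.5-fold or more in either direction could be rejected, with p-values adjusted by the Benjamini-Hochberg method over all tested genes. A gene that passed at an adjusted p below 0.05 is called bounded. Of the 9087 well measured genes, 9032 (99.4%) were bounded within 1.5-fold, 9081 within 2-fold and 7797 (85.8%) within a narrower margin of 25% up or the same ratio down. Bounds were wider for weakly expressed genes. Of 4661 genes between 10 and 50 CPM, 99% were bounded within 1.5-fold and 73.8% within the 25% margin, and of 2109 genes between 50 and 100 CPM 98.1% were bounded within the 25% margin. Of the 6150 tested genes under 10 CPM, 1569 (25.5%) were bounded within 1.5-fold, so at this depth a 1.5-fold difference could not be rejected for most weakly expressed genes. Without the block by Control number the median standard error was 0.149 and 7532 genes (82.9%) were bounded.

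**Figure D1:**
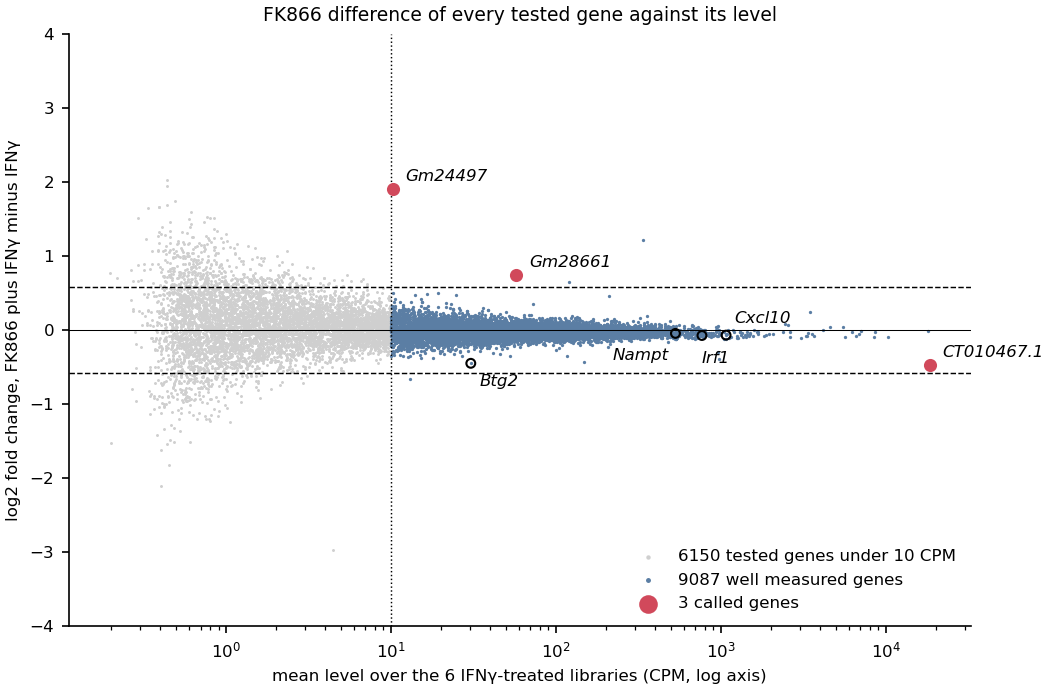
The log2 fold change of FK866 plus IFNγ minus IFNγ (vertical axis) of 15237 genes is plotted against the mean level over the 6 libraries in CPM on a log axis. Dashed lines mark 1.5-fold, the dotted line marks 10 CPM, red points are the 3 called genes, and black circles mark Nampt, Irf1, Cxcl10 and Btg2. Right of the dotted line 5 genes lie beyond a dashed line.

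At an adjusted p below 0.05 in edgeR's quasi-likelihood test, 2 genes rose with FK866 (0.0131% of those tested) and 1 fell (0.00656%). At an unadjusted p below 0.05, 268 genes (1.76%) were higher and 314 (2.06%) lower. These 582 genes were 3.82% of those tested, where uniform p-values would give 762. That share belongs to the fit of all 9 libraries. In a fit of the 6 libraries alone, 1008 of 14602 genes had an unadjusted p below 0.05 in edgeR. In that fit 8 genes were called, among them the protein-coding Btg2. None of the 3 called genes codes for a protein in the annotation, and each has a near-identical copy or is an abundant RNA of a kind that polyA selection removes. In the fit of all 9 libraries the smallest adjusted p of a protein-coding gene was 0.986 in edgeR. Gm28661 is a pseudogene copy of mt-Co2, the mitochondrial gene of a cytochrome c oxidase subunit. Nearby on chromosome 1 lie Gm28439 and Gm10222, copies of mt-Nd4 and mt-Nd4l. Their estimates were 0.47 and 0.34, both were lower in Control 5, and neither was called. Of 9 well measured unprocessed pseudogenes, 4 were higher at an unadjusted p below 0.05 and 0 lower. The median of the 9 was 0.27, and -0.083 within Control 5. Gm24497 is a copy of the spliceosomal RNA U2 that differs from Rnu2-10 at 2 bases. CT010467.1 is a ribosomal RNA gene.

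Sequences of both pairs are shown because reads of near-identical genes are hard to assign. All 681 bases of Gm28661 (GRCm38, chromosome 1, 24614885 to 24615565, minus strand) are found in mt-Co2 (chromosome M, 7013 to 7696, plus strand). Their opening 100 bases, from the GENCODE M21 transcripts and written 5′ to 3′, were the same:
Gm28661: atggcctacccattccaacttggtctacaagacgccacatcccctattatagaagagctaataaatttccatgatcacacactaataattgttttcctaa
mt-Co2: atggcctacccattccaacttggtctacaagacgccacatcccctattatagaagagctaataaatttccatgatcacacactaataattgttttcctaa
For Gm24497 (chromosome 1, 72244213 to 72244403, plus strand) and Rnu2-10 (chromosome 11, 101658238 to 101658428, plus strand), the stretch from base 101 to the end is shown, with the 2 differing bases in capitals:
Gm24497: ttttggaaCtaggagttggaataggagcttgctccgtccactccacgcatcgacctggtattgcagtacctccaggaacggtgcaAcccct
Rnu2-10: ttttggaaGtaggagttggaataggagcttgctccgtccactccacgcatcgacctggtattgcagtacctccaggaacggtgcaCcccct
A read from the shared stretch cannot be assigned to 1 member of a pair by its sequence. How the counting treated such reads is not given in the sources used here. Over the 6 libraries mt-Co2 had a mean of 45.7 CPM, against 17901 for mt-Co1, 7039 for mt-Nd1 and 5478 for mt-Cytb. Whether shared reads were left uncounted was not tested.

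Gm28661 had 46.6, 30.5 and 53.4 CPM with IFNγ in Control 3, 4 and 5 and 64.6, 66.4 and 83.1 CPM with FK866 added. All 3 libraries with FK866 lay above all 3 with IFNγ alone, and the media libraries, at 61.8, 47.1 and 62.4 CPM, lay between or among them. In the fit Gm28661 rose by 0.74 on the log2 scale (95% interval 0.54 to 0.93, adjusted p = 0.00288 in edgeR). Its source gene mt-Co2 did not pass, with 85.3, 35.8 and 34.8 CPM against 39.4, 29.5 and 49.4 CPM. With the counts of each near-identical pair summed before the fit, an alternative chosen after seeing the data, Gm28661 with mt-Co2 gave 132, 66.3 and 88.1 CPM against 104, 95.8 and 133 CPM. The sum was lower in Control 3 and higher in Control 4 and 5, and its log2 fold change was 0.26 (95% interval 0.020 to 0.49). In edgeR its unadjusted p was 0.036 and its adjusted p 0.986. The sum holds only reads that were counted, so it need not give the full level of either gene. The call of Gm28661 was also lost without the FK866 library of Control 4 (log2 fold change 0.61, adjusted p = 0.0680 in edgeR) and without that of Control 5 (0.74, adjusted p = 0.144). It was lost without the block and held with library totals as scaling, with a filter at a mean of 10 CPM and with DESeq2.

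Gm24497 had 2.7, 5.30 and 3.67 CPM with IFNγ and 2.29, 19.2 and 28.2 CPM with FK866 added. It was low in both libraries of Control 3 and high with FK866 in Control 4 and 5, and the groups overlapped. In media the same 2 numbers were high and Control 3 was low, at 2.89, 22.7 and 25.3 CPM. The fitted rise was 1.90 on the log2 scale (1.27 to 2.53, adjusted p = 0.033 in edgeR), and the mean of 10.2 CPM that made it well measured came mostly from the 2 high libraries. Its near-copy Rnu2-10 had 2.96, 4.75 and 3.14 CPM against 2.68, 4.37 and 3.86 CPM. The summed pair stood at 1.27 on the log2 scale (0.768 to 1.765, adjusted p = 0.295 in edgeR). Left out singly, the IFNγ library of Control 4 or 5 or the FK866 library of Control 4 or 5 also ended this call, with estimates of 1.28 to 1.94 and adjusted p-values from 0.454 to 1.00. It ended as well without the block, with library totals as scaling, with a filter at a mean of 10 CPM and with DESeq2. The Gm24497 call held with the 6 libraries alone, with DESeq2-style size factors in edgeR, without a filter on low counts and with limma-voom.

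CT010467.1 (chromosome 17, 39846353 to 39848827) had 23289, 16929 and 23779 CPM with IFNγ and 14899, 12313 and 19297 CPM with FK866 added. It was lower in each of the 3 pairs, with differences of -0.64, -0.46 and -0.30 on the log2 scale, and the groups overlapped. The fitted log2 fold change was -0.47 (-0.64 to -0.31, adjusted p = 0.033 in edgeR). Leaving out any 1 of the other 5 libraries, that is all but the FK866 library of Control 3, ended the call, with estimates from -0.57 to -0.33. It was also lost without the block, with library totals as scaling, with a filter at a mean of 10 CPM and with DESeq2. The CT010467.1 call held with the 6 libraries alone, with DESeq2-style size factors in edgeR, without a filter on low counts and with limma-voom. Rn7sk and Rpph1, 2 other abundant RNAs without a polyA tail, together took 1.63%, 1.84% and 2.21% of the counts with IFNγ and 1.57%, 1.65% and 2.26% with FK866 added, lower in Control 3 and 4 and higher in Control 5.

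**Figure D2:**
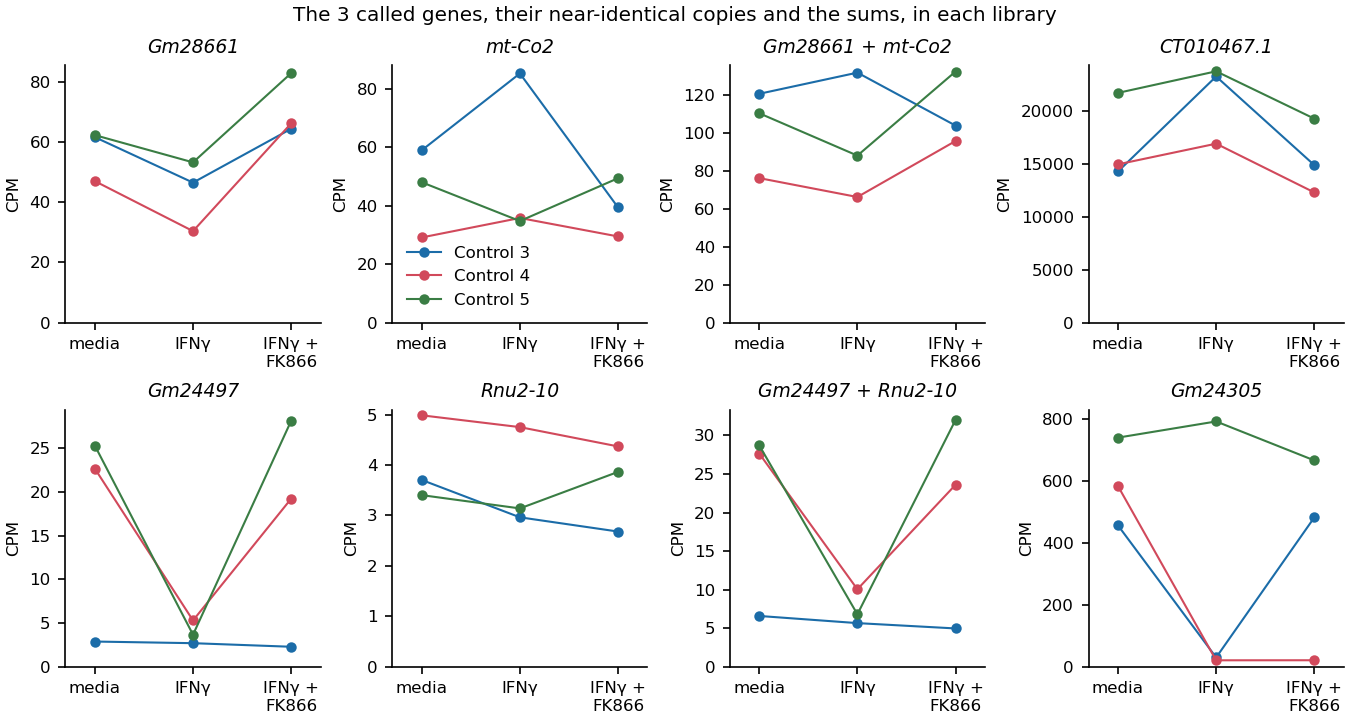
Level in CPM of the 3 called genes, of their near-identical copies and of the sums in each of the 9 libraries, with lines that join media, IFNγ and IFNγ plus FK866 of the same Control number. The Gm28661 lines all rise from IFNγ to FK866, the lines of its sum with mt-Co2 do not, Gm24497 is flat in Control 3, and Gm24305, a further small nuclear RNA, goes from 30.0 to 483 CPM in Control 3 alone.

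Genes of NAD metabolism were followed first, because they surround the target of the drug. Nampt (chromosome 12, 32819545 to 32853349) had 486, 578 and 549 CPM with IFNγ and 465, 613 and 486 CPM with FK866 added, against 154, 207 and 216 CPM in media. The FK866 libraries were lower in Control 3 and 5 and higher in Control 4, and the groups overlapped. The fitted difference was -0.048 on the log2 scale (standard error 0.0747, 95% interval -0.20 to 0.11), so a change beyond 1.15-fold lies outside the interval. Both IFNγ groups together lay 1.47 above media on the log2 scale.

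Of 25 genes of NAD synthesis, 15 were tested, 6 were well measured and all 6 were bounded within 1.5-fold. None was called. Nadk, the cytosolic kinase that turns NAD into NADP, had 111, 89.5 and 106 CPM with IFNγ and 96.3, 78.9 and 89.5 CPM with FK866 added. It was lower in all 3 pairs, with differences of -0.21, -0.18 and -0.24, a log2 fold change of -0.21 (-0.34 to -0.080) and an unadjusted p of 0.00321, and its adjusted p of 0.986 in edgeR did not pass. The mitochondrial NAD carrier Slc25a51 stood at -0.081 (-0.21 to 0.049). Nmnat1, which makes NAD in the nucleus, stood at 0.098 (-0.16 to 0.36), and Nadk2, the mitochondrial NAD kinase, at 0.10 (-0.091 to 0.29).

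The routes that could bypass NAMPT were weakly expressed and their bounds were wide. Naprt, the first enzyme of the nicotinic acid route, had 1.32, 1.83 and 0.415 CPM with IFNγ and 1.79, 2.24 and 1.38 CPM with FK866 added. It was higher in all 3 pairs, but its interval ran from -0.089 to 1.41 on the log2 scale and its unadjusted p was 0.0779. The nicotinamide riboside kinase Nmrk1 had 3.23, 3.72 and 3.38 CPM and 3.57, 2.76 and 1.70 CPM, with an interval of -0.91 to 0.16. Nmrk2 stayed below 1 CPM in all 6 libraries, at 0.461, 0.670 and 0.770 and 0.223, 0.156 and 0.524 CPM, and its unadjusted p of 0.0466 rested on levels that low. Genes of NAD synthesis from tryptophan were at or near 0, and Qprt, Tdo2, Ido1 and Kynu had 0 counts in every library.

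Of 34 genes that consume NAD or clear nicotinamide, 26 were well measured, all 26 were bounded within 1.5-fold and none was called. Their median log2 fold change was 0.00039, against -0.025 over all well measured genes. Parp14, an ADP-ribosyltransferase and the most abundant member, had 676, 599.5 and 488 CPM with IFNγ and 682, 661 and 484 CPM with FK866 added, an estimate of 0.047 (-0.082 to 0.18). It is one of several PARP genes that IFNγ raised, and Parp9, Parp10 and Parp12 had estimates of -0.012, -0.064 and 0.024. Parp8 was higher in 3 pairs, from 30.5, 27.7 and 27.4 to 36.1, 32.2 and 29.3 CPM, with an estimate of 0.19 and an unadjusted p of 0.0473, which did not pass after adjustment. Parp1, the main DNA damage PARP, stood at -0.098 (-0.23 to 0.039), Sirt1, the nuclear deacetylase, at 0.057 (-0.16 to 0.27) and Nnmt, which methylates nicotinamide, at 0.083 (-0.24 to 0.40). Cd38 was close to the floor of detection, with 0.988, 0.487 and 2.43 and 1.17, 0.156 and 1.44 CPM.

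Genes of the IFNγ response differed little between the groups. The induced genes were taken as the 247 well measured genes at least 2-fold higher in both IFNγ groups together than in media at an adjusted p below 0.05, a choice that does not use the difference between those 2 groups. Their summed level was 32293, 33644 and 27284 CPM with IFNγ in Control 3, 4 and 5 and 31849, 34059 and 26274 CPM with FK866 added, against 5810 to 6534 CPM in media. The FK866 sum was lower in Control 3 and 5 and higher in Control 4. The median log2 fold change of the 247 genes was -0.0075, with quartiles of -0.063 and 0.056, 109 estimates above 0 and 138 below. Of these genes 241 (97.6%) were bounded within 1.5-fold and 182 (73.7%) within the 25% margin. Over all well measured genes the shares were 99.4% and 85.8%. Not bounded within 1.5-fold were Btg2, Gm47022, Gm47087, Pcdhga7, Gm22513 and Phxr4, and Btg2 had the lowest estimate of the 247, -0.45. None of the induced genes was called in edgeR. At an unadjusted p below 0.05, 5 were higher and 9 lower, against 97 and 246 of the 9087 well measured genes. The 109 genes induced at least 4-fold had a median of -0.0041.

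Among regulators, Irf1 had 762, 826 and 773 CPM with IFNγ and 719, 796 and 725 CPM with FK866 added, against 20.6, 17.3 and 14.0 CPM in media. The pair differences were -0.083, -0.054 and -0.092, and its log2 fold change of -0.077 had an interval of -0.24 to 0.085. The feedback inhibitor Socs1 stood at -0.087 (-0.24 to 0.062) and the MHC class I transactivator Nlrc5 at -0.040 (-0.16 to 0.081). The receptor genes Ifngr1 and Ifngr2 stood at -0.13 and -0.060, with intervals of -0.41 to 0.15 and -0.21 to 0.091. None of the 20 well measured genes of this list passed an unadjusted p of 0.05, against 3.82% of all tested genes.

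Cd274, the gene of PD-L1, had 278, 290.1 and 217 CPM with IFNγ and 271, 301 and 217 CPM with FK866 added, against 8.41, 10.4 and 5.13 CPM in media. The estimate was 0.0045 on the log2 scale (-0.14 to 0.15), so that a change beyond 1.11-fold lies outside the interval. Cxcl10, a chemokine that attracts T cells, had 682, 1761 and 839.8 CPM and 650.2, 1734 and 774 CPM, with a log2 fold change of -0.071 (-0.28 to 0.14). Its level in Control 4 was more than 2-fold that of the other numbers in both groups, and its pair differences were -0.070, -0.023 and -0.12. Cxcl9, of the same family, had 37.4, 32.2 and 5.57 CPM and 30.7, 38.0 and 3.86 CPM, and its interval of -0.38 to 0.16 was wider.

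**Figure D3:**
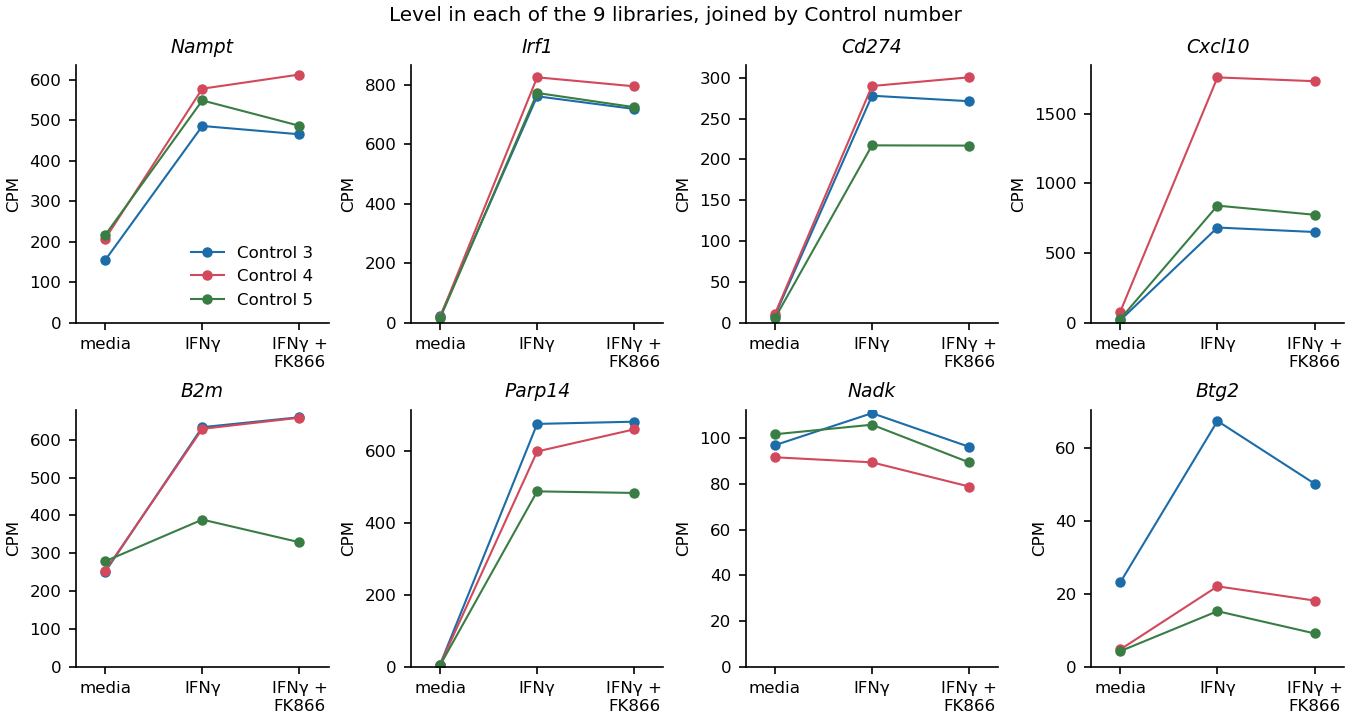
Level in CPM of 8 genes in each of the 9 libraries, with lines that join media, IFNγ and IFNγ plus FK866 of the same Control number. From IFNγ to FK866 the lines of Nampt, Irf1, Cd274, Cxcl10 and Parp14 are close to flat, B2m of Control 5 lies apart, and the Nadk and Btg2 lines slope down in all 3 pairs.

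B2m encodes the light chain of class I molecules and had 633, 629 and 389 CPM with IFNγ and 659.6, 658 and 329 CPM with FK866 added. Control 5 was low in both groups, and the pair differences were 0.059, 0.066 and -0.24. Its log2 fold change of -0.022 had a standard error of 0.140 and a wider interval than most genes of that level, -0.31 to 0.27. Without the FK866 library of Control 5 the estimate was 0.19, with an adjusted p of 1.00 in edgeR. Of 22 genes of MHC class I presentation, 16 were well measured, all 16 were bounded within 1.5-fold and none passed an unadjusted p of 0.05. The peptide transporter genes Tap1 and Tap2 stood at 0.081 (-0.22 to 0.38) and 0.13 (-0.14 to 0.40), the class I heavy chain gene H2-D1 at -0.057 (-0.20 to 0.091) and the weakly expressed H2-K1 at -0.17 (-0.47 to 0.12).

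The IFN-inducible GTPases, which attack the compartments of intracellular microbes, went from a summed level of 21.4 to 37.0 CPM in media to 6435 to 7454 CPM with IFNγ and 5961 to 7841 CPM with FK866 added. All 16 well measured members of 22 were bounded within 1.5-fold and none was called. The median log2 fold change was 0.065, with 11 estimates above 0 and 5 below, and the medians within Control 3, 4 and 5 were 0.072, 0.12 and -0.048. Gbp4, a guanylate-binding protein, had 27.3, 43.9 and 34.9 CPM with IFNγ and 35.2, 46.5 and 45.6 CPM with FK866 added and was higher in all 3 pairs. Its log2 fold change of 0.27 (0.088 to 0.46) had an unadjusted p of 0.00617 and an adjusted p of 0.986 in edgeR. Gm4841 was higher in all 3 pairs as well, with 36.3, 19.1 and 23.4 CPM against 41.8, 23.7 and 27.7 CPM and an unadjusted p of 0.0144. The most abundant members showed no such order: Gbp2 stood at -0.056 (-0.23 to 0.12), Irgm1 at -0.066 (-0.22 to 0.086) and Iigp1 at 0.066 (-0.073 to 0.20). Reads of guanylate-binding proteins and of Tgtp1 and Tgtp2 may be shared among close paralogs.

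Genes lowered by IFNγ, 136 well measured genes at least 1.5-fold lower in both IFNγ groups together than in media, had a median log2 fold change of -0.045 with FK866, with 36 estimates above 0 and 100 below. All well measured protein-coding genes split into 3238 above and 5602 below, and the medians of the lowered genes within Control 3, 4 and 5 were 0.015, -0.10 and -0.051. Of the 136 lowered genes, 131 (96.3%) were bounded within 1.5-fold, against 99.4% of all well measured genes. Only Gm24497, described above, was called among them. Mitf encodes the transcription factor at the head of the melanocyte programme and had 266, 374 and 366 CPM with IFNγ and 342, 401 and 388 CPM with FK866 added, against 753, 884 and 783 CPM in media. It was higher with FK866 in all 3 pairs, by 0.37, 0.10 and 0.085, while the groups overlapped. Its estimate of 0.18 (0.032 to 0.33) had an unadjusted p of 0.02 and did not pass after adjustment (0.986 in edgeR). Gja3, a connexin gene, was lower in all 3 pairs, from 61.8, 44.6 and 31.0 to 45.2, 39.5 and 25.5 CPM, with an estimate of -0.31 (-0.46 to -0.15). Its unadjusted p of 0.000533 was the smallest of all protein-coding genes.

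**Figure D4:**
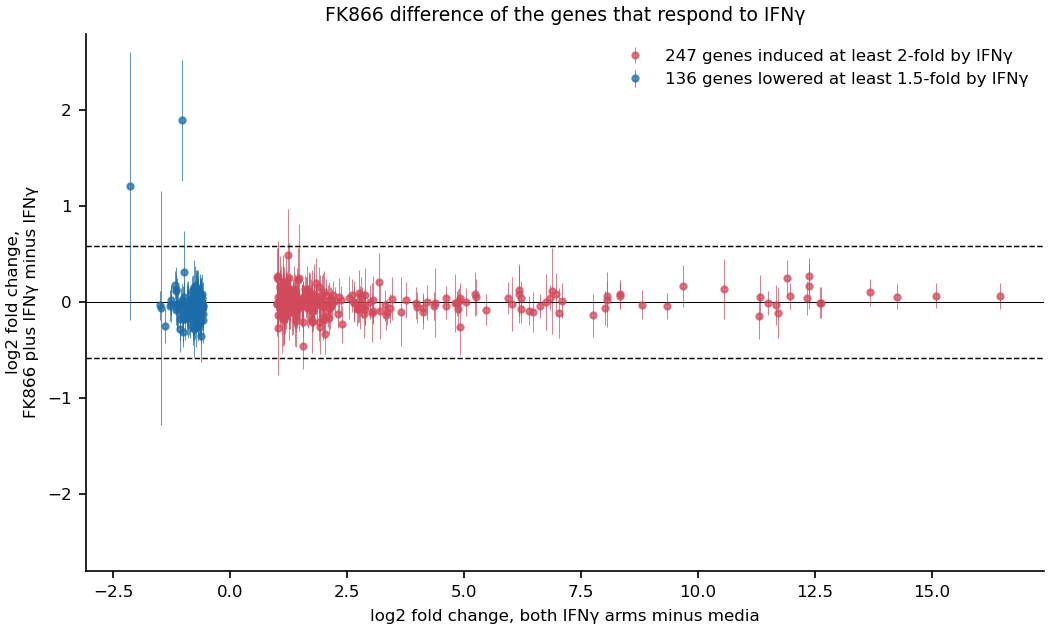
The log2 fold change of FK866 plus IFNγ minus IFNγ with its 95% interval (vertical axis) is plotted against the log2 fold change of both IFNγ groups minus media for 247 induced and 136 lowered genes. Horizontal positions beyond about 8 belong mostly to genes with few or no counts in media and depend on the prior count of the fit. The induced genes lie along 0 at every strength of induction, and Gm24497 and Gm24305 stand above the upper dashed line of 1.5-fold.

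The other pathways were described by lists of genes. Of 32 lists, 30 had well measured genes, 554 in all. Of these 549 were bounded within 1.5-fold, and 1, CT010467.1, was called. In 26 lists the median was below 0 and in 4 above, against a median of -0.025 over all well measured genes. Over those genes, 1850 (20.4%) were lower and 817 (8.99%) higher with FK866 in all 3 pairs. The pair differences of the 9087 genes agreed little from number to number. Their correlation was -0.034 for Control 3 and 4, 0.0033 for 3 and 5 and 0.17 for 4 and 5.

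The lowest median was that of the immediate early genes, which respond within minutes to growth factors and stress. Of 30 genes, 27 were tested and 20 well measured, and none was called. The median log2 fold change was -0.16, with medians of -0.17, -0.16 and -0.17 within Control 3, 4 and 5, and 15 of the 20 were lower in all 3 pairs. At an unadjusted p below 0.05, 9 of the 27 were lower and 1, Srf, was higher. Over all tested genes 2.06% were lower and 1.76% higher. Btg2, an antiproliferative gene also driven by p53, had 67.6, 22.1 and 15.3 CPM with IFNγ and 50.3, 18.2 and 9.17 CPM with FK866 added. Its levels in the 3 numbers differed more than the groups did, and its pair differences were -0.42, -0.28 and -0.73. Its estimate of -0.45 (-0.70 to -0.21) had an unadjusted p of 0.00103 and an adjusted p of 0.986 in edgeR, and in a fit of the 6 libraries without media its adjusted p was 0.0488.

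Other well measured members of that list had smaller differences in the same direction. Ccn1, a matricellular protein gene, had 150.4, 104 and 83.0 CPM against 128, 84.1 and 73.7 CPM, a log2 fold change of -0.24 (-0.37 to -0.11). Junb, a subunit of the AP-1 factor, had 61.9, 60.1 and 42.2 CPM against 53.1, 51.7 and 34.1 CPM, -0.24 (-0.38 to -0.11). Fos stood at -0.33 (-0.57 to -0.078), the orphan receptor Nr4a1 at -0.26 (-0.46 to -0.059), the ERK phosphatase Dusp6 at -0.17 (-0.31 to -0.027) and the stress factor Atf3 at -0.23 (-0.42 to -0.034). Each of these was lower in 3 of 3 pairs and none passed adjustment. Jun, another AP-1 gene, stood at -0.090 (-0.25 to 0.074), and Myc at -0.028 (-0.22 to 0.16) with pair differences of both signs. In media, in IFNγ and with FK866 the list summed to 1045 to 1183, 1303 to 1786 and 1177 to 1637 CPM. Some members were also among the 247 IFNγ-induced genes. These included Btg2, Atf3, Dusp6 and Jun, at 1.57, 2.39, 1.11 and 1.36 above media on the log2 scale.

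p53 targets and NRF2 targets had the next lowest medians. The 14 well measured p53 targets had a median of -0.13, 9 were lower in all 3 pairs and 1 higher, and 13 of 14 were bounded within 1.5-fold, the exception being Btg2. Phlda3, an inhibitor of AKT, had 109, 60.2 and 46.3 CPM against 98.5, 49.5 and 40.5 CPM, -0.20 (-0.35 to -0.064). The cell cycle inhibitor Cdkn1a stood at -0.098 (-0.22 to 0.029), while the ribonucleotide reductase subunit Rrm2b was higher in all 3 pairs, at 0.22 (0.045 to 0.40). The 23 well measured NRF2 and redox genes had a median of -0.10, 16 were lower in all 3 pairs and all 23 were bounded within 1.5-fold. Among them Taldo1, an enzyme of the pentose phosphate pathway, stood at -0.17 (-0.30 to -0.034), Osgin1 at -0.20 (-0.37 to -0.038) and the glutathione peroxidase Gpx4 at -0.16 (-0.32 to -0.0052). The ferritin genes Ftl1 and Fth1 stood at -0.10 and -0.11, with bounds of 1.17-fold and 1.18-fold. No gene of either list was called. Without the FK866 library of Control 5 the median of the NRF2 list was -0.054.

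Energy metabolism, where NAD is used, showed small differences. The 21 well measured glycolysis genes had a median of -0.073, 12 were lower in all 3 pairs, all were bounded within 1.5-fold and none was called. Gapdh, the NAD-dependent step of glycolysis, had 6610.5, 5361 and 5538 CPM with IFNγ and 6125, 4966 and 5324 CPM with FK866 added, a log2 fold change of -0.093 (-0.21 to 0.021). Ldha, which regenerates NAD from NADH, stood at -0.10 (-0.23 to 0.022) and Pgk1 at -0.13 (-0.25 to -0.0023). The 37 well measured genes of NAD(P)-linked dehydrogenases had a median of -0.079 and the 36 nuclear genes of the respiratory chain one of -0.069, all bounded within 1.5-fold. The widest bound among the latter was that of Ndufa1, a subunit of complex I, at -0.31 (-0.56 to -0.051) with pair differences of -0.054, -0.36 and -0.61. Of 12 well measured mitochondrially encoded mRNAs 11 were bounded within 1.5-fold, and mt-Co1, the most abundant, had the narrowest interval of all well measured genes, -0.12 to 0.084 around -0.019.

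Stress lists stayed close to 0. The 21 well measured genes linked to AMPK and energy stress had a median of -0.025 and the 22 of the ATF4 and amino acid response one of -0.055, and none was called. Cpt1a, an acyltransferase that admits long-chain fatty acids to mitochondria, was lower in 3 pairs, at -0.15 (-0.30 to 0.00073), and the pyruvate dehydrogenase kinase Pdk1 stood at -0.17 (-0.33 to -0.0064). In the heat shock and ER chaperone list the median was -0.021, with Hspa8 at -0.024 (-0.16 to 0.11) and the ER cochaperone Dnajb9 at 0.17 (0.0060 to 0.33). DNA replication and mitosis genes had medians of -0.045 and -0.00072, with the proliferation marker Mki67 at -0.0064 (-0.21 to 0.20) and the replication licensing gene Cdc6 at -0.16 (-0.30 to -0.014). All 21 apoptosis genes, all 28 lysosome and autophagy genes and all 26 mitosis genes that were well measured were bounded within 1.5-fold.

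**Figure D5:**
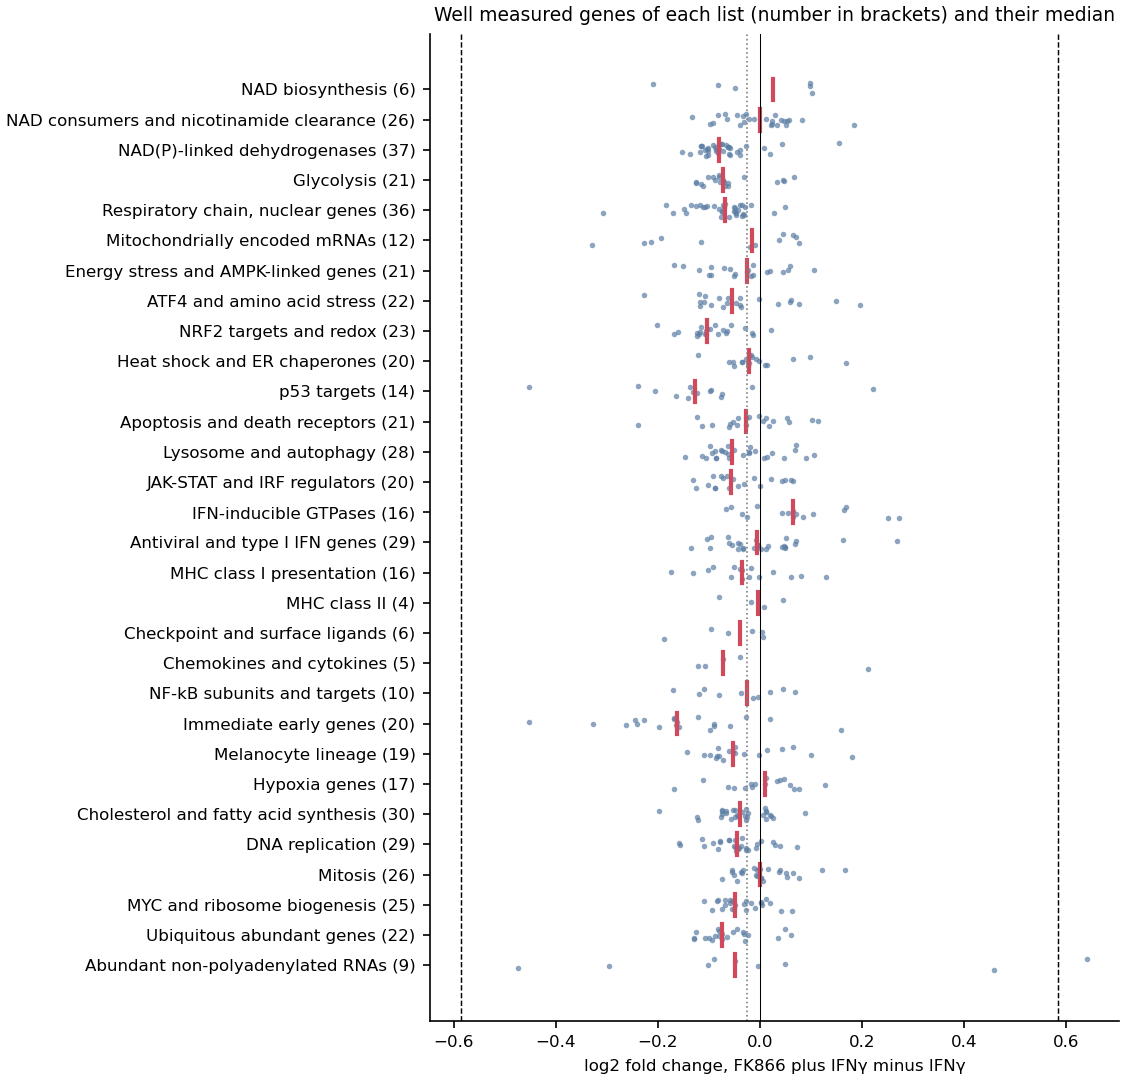
Each blue point is the log2 fold change of FK866 plus IFNγ minus IFNγ (horizontal axis) of 1 well measured gene of a list, with the number of such genes in brackets, and red bars are list medians. Dashed lines mark 1.5-fold and the dotted line the median of all well measured genes. Of all points only Rn7s2 lies beyond a dashed line, and the median of the immediate early genes lies lowest, at -0.16.

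The median estimate also varied with transcript length. Well measured protein-coding genes were split into 5 groups of equal size by exonic length, the bases covered by exons of any annotated transcript. The median log2 fold change was -0.053 in the shortest group (204 to 2880 bases), -0.037, -0.028 and -0.016 in the next ones and 0.0056 in the longest (8346 to 123179 bases). Within Control 3 the medians of the shortest and longest group were 0.0033 and 0.0067, within Control 4 -0.050 and 0.016, and within Control 5 -0.11 and -0.0089. The shift was thus seen in 2 of 3 pairs. In the shortest group 471 of 1768 genes were lower in all 3 pairs, and in the longest 253 of 1768. The median exonic length was 2802 bases for the immediate early genes, 3080 for the NRF2 list, 4022 for the p53 list and 2151 for the nuclear respiratory genes. The medians of these 4 lists were -0.16, -0.10, -0.13 and -0.069. The shortest group, where the median lengths of the immediate early and respiratory lists fall, had -0.053. The next group, where those of the NRF2 and p53 lists fall, had -0.037. The part of length in the list medians was not tested.

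Among protein-coding genes of at least 10 CPM that were chosen for having the same direction in all 3 pairs, the smallest p-values for a higher level belonged to Dzip3, Gbp4, Kmt2c, Ube2v2, Cenpj, Uchl5, Mrpl1, Ctdspl, Eps15l1 and Cep57l1. Their log2 fold changes ran from 0.16 to 0.30 and their unadjusted p-values from 0.00607 to 0.0143. Kmt2c, a histone methyltransferase, had 123, 115 and 111 CPM with IFNγ and 135, 139.9 and 123 CPM with FK866 added, and its lowest library with FK866 lay just above the highest without it. The smallest p-values for a lower level belonged to Gja3, Ccn1, Btg2, Sat1, Junb, Tg, Zik1, Tef, Lars2 and Pgls, with log2 fold changes of -0.45 to -0.24 and unadjusted p-values from 0.000533 to 0.00261. Sat1, which acetylates polyamines, had 44.4, 38.3 and 31.5 CPM against 38.8, 31.5 and 24.0 CPM. Tef, a circadian transcription factor, had 46.5, 41.5 and 39.2 CPM against 42.2, 33.6 and 31.4 CPM, and Pgls, an enzyme of the pentose phosphate pathway, had 70.3, 61.9 and 64.9 CPM against 58.9, 48.7 and 60.1 CPM. Lars2, the mitochondrial leucyl-tRNA synthetase, had 1109, 840.2 and 1199 CPM against 732, 705 and 1183 CPM, and its pair differences of -0.60, -0.25 and -0.020 were of unequal size. Those of the ribosomal RNA gene CT010467.1 ran in the same order, -0.64, -0.46 and -0.30. Whether the levels of these genes are linked was not tested. All 20 had an adjusted p of 0.986 in edgeR.

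The 55 well measured genes that were not bounded within 1.5-fold were mostly not protein-coding. They comprised 17 of 8840 protein-coding genes and 38 of 247 others, of which 23 were of the annotation class TEC, transcripts still to be experimentally tested. The 55 well measured TEC genes had a median log2 fold change of 0.24, with medians of -0.070, 0.28 and 0.45 within Control 3, 4 and 5, so the median was above 0 in 2 of 3 pairs. Widest among protein-coding genes were histone genes, whose mRNAs lack a polyA tail. Hist2h2aa2 had 4.15, 44.9 and 10.1 CPM with IFNγ and 36.7, 5.36 and 9.69 CPM with FK866 added, and Hist1h2an had 20.5, 15.2 and 58.2 CPM and 24.6, 15.6 and 23.1 CPM. In media they had 30.5, 51.5 and 67.5 CPM and 0, 14.0 and 44.6 CPM. Hist2h2aa2 was thus high in 5 of the 9 libraries and low in 4, and its bound of 2.42-fold was the widest of the well measured protein-coding genes. Narrow bounds came with steady levels: Prr14l had 126, 112 and 119.9 CPM and 129, 114 and 122 CPM and a bound of 1.10-fold, and Eef1a1, the translation elongation factor, had 6552, 6341 and 7489 CPM and 6282, 6069 and 6894 CPM and a bound of 1.14-fold.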

How the data were processed

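Raw counts of reads per gene in 9 libraries were deposited by the authors. For their steps, cutadapt 1.16, STAR 2.7.6a, featureCounts 1.6.3, DESeq2 1.30.1 and the build GRCm38 are named per the submitters' processing notes, without the role of each. Neither strand nor the handling of reads with several matches is given in the sources used here. Gene symbols, types and positions came from GENCODE M21 (GRCm38), and 55141 of 55487 genes received a symbol.

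Counts were tested with edgeR 4.0.16 in R 4.3.3: edgeR's expression filter, TMM scaling, and a quasi-likelihood fit of group plus Control number over all 9 libraries, with Benjamini-Hochberg adjustment over the 15237 tested genes. Standard errors and 95% intervals came from the same fit, as did the one-sided tests for bounds. Pair differences are log2 CPM with a prior count of 1. Library totals of 15317000 to 18467000 counts limit the precision of weakly expressed genes.

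The numbers in the titles were used as pairs because same-numbered libraries deviated together from their group means, with correlations across genes of 0.784 to 0.905, against -0.622 to -0.123 for different numbers. Named genes were 5 genes of NAD and IFNγ biology (Nampt, Irf1, Cd274, Cxcl10, B2m), every called gene, the 10 smallest p-values in each direction among protein-coding genes that moved one way in 3 pairs, members of each list by p and level, the strongest IFNγ responders, and the narrowest and widest intervals. Several genes count under more than 1 of these, among them Gbp4, Btg2, Ccn1, Gja3, Tef and Mitf. The members, lists and rules were chosen with earlier results of these data known. The fit was also run on counts simulated from its own fitted means, with a spread set by level alone. That run cannot speak for genes of unusual spread, and its outcome is not used here. Alternatives were no block, the 6 libraries alone, other scalings and filters, DESeq2 1.42.0, limma 3.58.1 and each library left out. Summing near-identical copies and leaving out Rn7sk, Rpph1 and CT010467.1 were chosen after seeing the data.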

Additional observations from a re-analysis of the deposited data

How the results depend on the processing

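Without the replicate block 0 genes were called in edgeR (98 at an unadjusted p below 0.05), and 7532 well measured genes were bounded within 1.5-fold. The count of called genes, 3 as reported, was 8 with the 6 libraries alone (1008 at an unadjusted p below 0.05). It was 1 with library totals as scaling, 1 with a filter at a mean of 10 CPM and 1 with DESeq2 (Gm28661 in each of these 3). With near-identical copies summed it was 0 (581 at an unadjusted p below 0.05). Leaving out 1 library or 1 Control number gave 0 to 10 called genes: 10 without the FK866 library of Control 3, 7 without Control 3, 1 without the IFNγ library of Control 5, 1 without the FK866 library of Control 4, 1 without Control 4, and 0 without the FK866 library of Control 5 or without Control 5. Bounded genes numbered 8874 to 9026 in these fits. With well measured set at a mean of 50 CPM, 4418 of 4426 genes were bounded, fewer because fewer genes enter. The median absolute log2 fold change, 0.054 as reported, ran from 0.055 to 0.078 in fits that left out libraries. The median of the induced genes was 0.030 with library totals as scaling and ran from -0.041 to 0.015 in fits that left out libraries. Estimates near 0 changed sign: Cd274 ran from -0.050 to 0.044, Cxcl10 from -0.18 to 0.011 and B2m from -0.15 to 0.19, none of them called. The causes of these shifts were not tested. The fit of the 6 libraries alone gives no induced genes, since it has no media.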

Other observations

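Several RNAs without a polyA tail varied widely between libraries of a group. Hist1h4k, a histone H4 gene, had 0.0658, 0.914 and 24.3 CPM with IFNγ in Control 3, 4 and 5 and 0.614, 0.416 and 0.524 CPM with FK866 added, and 0.188, 0.493 and 0.418 CPM in media, so 1 of the 9 libraries was high. Gm24305, a small nuclear RNA, had 30.0, 20.9 and 793 CPM with IFNγ and 483, 21.1 and 667 CPM with FK866 added, after 457, 584 and 741 CPM in media. Rn7s2 and Rn7s1, copies of the signal recognition particle RNA that are identical over 300 bases, had 66.9, 71.5 and 136 and 149.6, 161 and 187 CPM with IFNγ and 96.8, 94.7 and 258 and 116, 113 and 531 CPM with FK866 added. In media they had 57.3, 94.7 and 116 and 365, 668 and 145 CPM, so that Rn7s2 was highest with FK866 in Control 5 and Rn7s1 in media in Control 4. None of these 4 genes was called in edgeR over the 9 libraries. Rn7s2 was called with the 6 libraries alone, without Control 4 and without the FK866 library of Control 4. Hist1h4k was called without Control 3 and without either its IFNγ or its FK866 library.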
